A study of Rattus norvegicus with 42 samples.

Results

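Gene expression in wild-type (WT) GH4C1 cells was compared between 30 h (T30) and 18 h (T18) after a change of medium. GH4C1 is a continuous cell line from a rat pituitary tumour, of the somatolactotroph type that makes growth hormone and prolactin. The comparison rests on 6 of the 42 RNA sequencing libraries of the series, 3 at T30 and 3 at T18, chosen by the genotype and time on their labels. All 6 came from untreated cells with the wild-type genotype, grown in HamF10 medium with horse and fetal calf serum. Fresh medium at time 0 served to synchronise the cells, and RNA was then taken every 4 h from 10 h to 34 h. The other genotype of the series, Neat1 -/- (KO), lacks the long non-coding RNA Neat1 after CRISPR-Cas9 editing, and its libraries at the same times are used below for comparison. The labels used here do not say whether the KO cells were 1 clone, or whether replicates were separate cultures. The p-values therefore measure the spread between these libraries, which may be technical.

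T18 and T30 lie 12 h apart, at opposite phases of a 24 h cycle. Cultured cells carry a circadian clock, in which the activators BMAL1 and CLOCK drive the genes of their own repressors, the PER and CRY proteins, and fresh serum can set the clocks of many cells to a common phase. A gene with a 24 h rhythm that peaks near one of the times compared would differ between them, and so would a gene that drifts in one direction as a culture ages after feeding. Neat1 is the RNA scaffold of paraspeckles, nuclear bodies that hold RNA-binding proteins and some transcripts. The count tables name genes by Ensembl identifiers, and 0 of the 13776 could be paired with a symbol through the reference table. Clock genes, pituitary hormones, the markers of the cell line and Neat1 were therefore not analysed here, and neither the genotype nor the cell type was checked against its genes.

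The libraries held 39.1, 51.5 and 43.1 M counts at T18 (M, mega) and 55.5, 50.6 and 37.9 M at T30. Over genes, the correlation of log2 CPM (counts scaled by library size and TMM) was 0.995 to 0.997 between replicates of 1 time and 0.993 to 0.995 between libraries of the different times. In the same pairs, 48 to 59 genes differed by more than 2-fold between replicates and 52 to 63 between the times, so differences of this size were about as many within a time as between the times. On the second principal component of the 18 WT libraries of T10 to T30, which held 14% of the variance, T18 replicate 3 lay at -8.58 and the other T18 replicates at 9.47 and 9.84. T30 replicate 2 lay at -8.90, and the other T30 replicates at 2.50 and -3.23. The first component held 28.6%. On it the T18 libraries lay at -0.94, -1.38 and 3.30 and the T30 libraries at 9.12, 12.4 and 11.6, without overlap.

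Many genes differed between T30 and T18, nearly all by a small amount. Of 13748 genes tested, 1620 (11.8%) passed an adjusted p under 0.05 in edgeR's quasi-likelihood test, with Benjamini-Hochberg adjustment. Of these, 697 genes (5.07% of those tested) were higher at T30 and 923 (6.71%) were lower. The unadjusted p was under 0.05 for 3659 genes. The median size of a called change was 1.20-fold, and 102 called genes reached 1.5-fold, 36 of them higher and 66 lower. Genes higher at T30 made up 43.0% of the calls with the TMM scaling used here, 48.2% with size factors from the median of ratios and 33.0% with library totals. The size of the excess of lower genes thus depended on the scaling, though not on it alone. With TMM kept, the share higher was 47.4% with no filter on low counts. It was 40.6% to 48.7% with 1 library left out.

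The count depended on which libraries entered the fit. The fit used 18 WT libraries and left out T34, where replicate 1 stands apart. With all 21 WT libraries 113 genes were called, with all 42 libraries of the series 323, and with all but WT T34 replicate 1 1740. The 6 libraries alone gave 683 calls. When 1 library was left out, the count was 853 without T18 replicate 1, 820 without T18 replicate 2 and 2580 without T18 replicate 3. It was 1489 without T30 replicate 1, 754 without T30 replicate 2 and 971 without T30 replicate 3. Leaving out one of these libraries changes a group mean as well as the spread, and their parts in the shift were not tested. In the fits with 1 library left out, 741 to 1464 of the 1620 genes were called again. With all but WT T34 replicate 1 the number was 1349, and with the 6 libraries alone 675. It was 321 with all 42 libraries and 113 with all 21 WT libraries. All 1620 kept the sign of their change, which their choice from these same libraries makes likely beforehand.

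**Figure D1:**
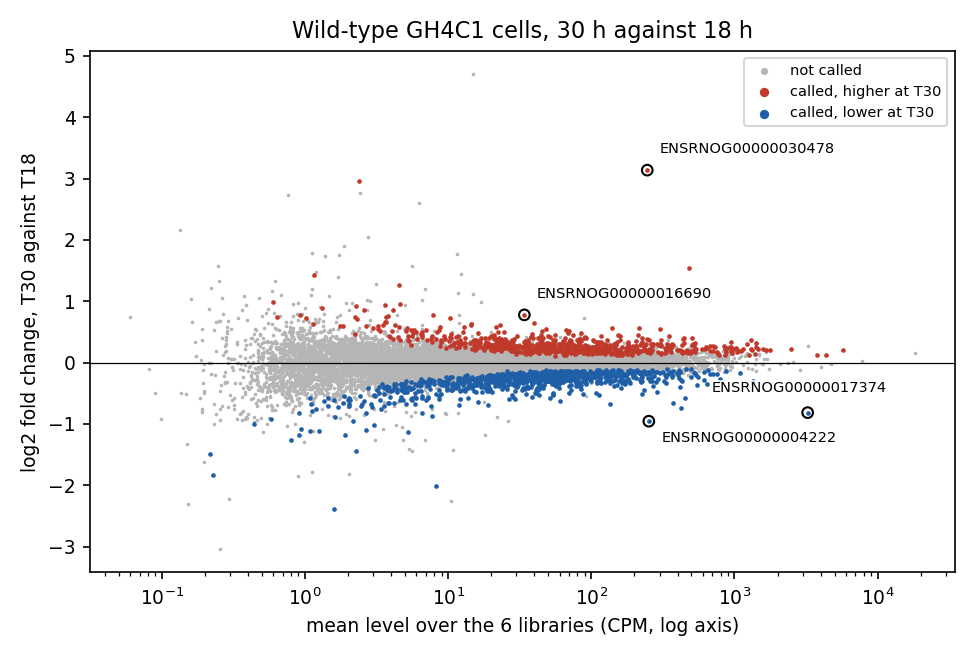
Each point is a gene, with its mean level over the 6 libraries (CPM, log axis) against its log2 fold change at T30 against T18. Called genes are red (697, higher) or blue (923, lower), grey genes were not called, and circles mark the 4 genes described by identifier; most called changes lie close to 0, at a median of 1.20-fold.

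The genes with large changes were mostly weakly expressed. Called changes reached 2-fold in 20 genes, 5 higher and 15 lower at T30. Of the 20 genes, 18 had a mean under 10 CPM and 11 a mean under 2 CPM, and in 4 of them the T18 and T30 libraries overlapped. Over all 1620 called genes the groups were apart for 1551 (95.7%), while groups did not overlap for 27.4% of all genes tested. The calls came from the gap between these same libraries, which by itself makes most called groups lie apart. Against a 1.5-fold minimum change, 1 gene passed the test.

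Calls were more frequent among abundant genes. Of the 3437 genes with the lowest mean levels, up to 5.76 CPM, 143 (4.16%) were called, and of the 3437 with the highest, from 63.2 CPM, 638 (18.6%) were. The median size of a called change was 0.59 in the former and 0.22 in the latter on the log2 scale. The direction also varied with level, since 32.2% of the calls among the former and 52.2% among the latter were higher at T30. Among the 100 most abundant genes 32 were called higher and 4 lower. The top 10 genes by count together made up 6.16% to 6.51% of a T18 library and 6.32% to 6.82% of a T30 library, ranges that overlap.

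Genes are described by identifier for the 2 largest changes in each direction among 1332 genes that were called, had a mean of at least 10 CPM and had groups that did not overlap. All adjusted p-values are from edgeR. Of these 1332 genes 602 were higher and 730 lower at T30.

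The largest fall was that of ENSRNOG00000004222. Its levels at T18 were 325, 315 and 357 CPM, and at T30 they were 156, 180 and 179 CPM. All T30 libraries lay well under the lowest T18 library. The log2 fold change was -0.96 (SE 0.06, adjusted p 6.15e-08), a 1.94-fold fall, and no other gene had a smaller p. It was also the gene that passed against the 1.5-fold minimum, with an adjusted p of 0.00494. The means were in descending order from the first time on. They were 654 ± 21.3 CPM at T10, 504 ± 7.95 CPM at T14 and 333 ± 22 CPM at T18, followed by 243 ± 5.70 CPM at T22, 178 ± 3.03 CPM at T26 and 172 ± 13.6 CPM at T30 (SD, n = 3 each). Between T18 and T26 it fell in both steps (log2 fold changes -0.46 and -0.45, adjusted p 0.00231 and 0.00298), and from T26 to T30 the difference was -0.05 (adjusted p 0.729). At T34, 24 h after T10, replicates 2 and 3 had 176 and 179 CPM and replicate 1 had 86.3 CPM, all under the lowest T10 library at 631 CPM.

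The second largest fall, that of ENSRNOG00000017374, concerned one of the most abundant genes of these cells, ranked 9 by mean level. It had 4050, 3920 and 4450 CPM at T18 and 2260, 2410 and 2390 CPM at T30. The groups were far apart against their own spread. The log2 fold change was -0.82 (SE 0.06, adjusted p 2.55e-07). Its course had the same form as that of ENSRNOG00000004222, from 5600 ± 336 CPM at T10 over 5150 ± 320 at T14, 3240 ± 79.0 at T22 and 2600 ± 57.4 at T26 (SD, n = 3 each) to 1850, 2650 and 2540 CPM in the T34 libraries. Both steps between T18 and T26 were called (log2 fold changes -0.35 and -0.33, adjusted p 0.0129 and 0.0252), and that from T26 to T30 was not (-0.14, adjusted p 0.336).

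A single library carried the largest rise. ENSRNOG00000030478 had 45.1, 54.9 and 49.9 CPM at T18 and 73.7, 85.2 and 1170 CPM at T30, the last in replicate 3. The other T30 libraries lay above all T18 libraries too, by far less. The log2 fold change was 3.14 (SE 0.82, adjusted p 0.0185), and without T30 replicate 3 it was 0.67 (SE 0.48, adjusted p 0.439). DESeq2 gave this gene no adjusted p. High single values appeared at other WT times too, with 270 CPM in T10 replicate 1 and 710, 343 and 147 CPM in the T34 libraries. In KO the gene stood at 20800 ± 1630 CPM at T18 and 23100 ± 1530 CPM at T30 (SD, n = 3 each).

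The second largest rise did not rest on a single T30 library. ENSRNOG00000016690 had 23.9, 20.9 and 30.4 CPM at T18 and 39.5, 45.7 and 43.9 CPM at T30. The T18 libraries were less even than the T30 libraries, and the groups did not overlap, which the choice of genes required. The log2 fold change was 0.78 (SE 0.13, adjusted p 0.000927), and 0.66 to 0.94 when 1 library was left out. It was 0.78 also with all 21 WT libraries (SE 0.26, adjusted p 0.247) and with all 42 (SE 0.24, adjusted p 0.0804), fits in which the gene was not called. Its mean level went from 20.9 ± 2.69 CPM at T10 over 29.9 ± 1.51 at T22 and 32.9 ± 0.64 at T26 to 43.1 ± 3.19 at T30 (SD, n = 3 each). None of the 3 steps of 4 h from T18 to T30 passed the test (adjusted p 0.258 to 0.810). In T34 replicates 2 and 3 it stood at 37.0 and 34.8 CPM, still above all T18 libraries, and in T34 replicate 1 at 12.7 CPM.

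**Figure D2:**
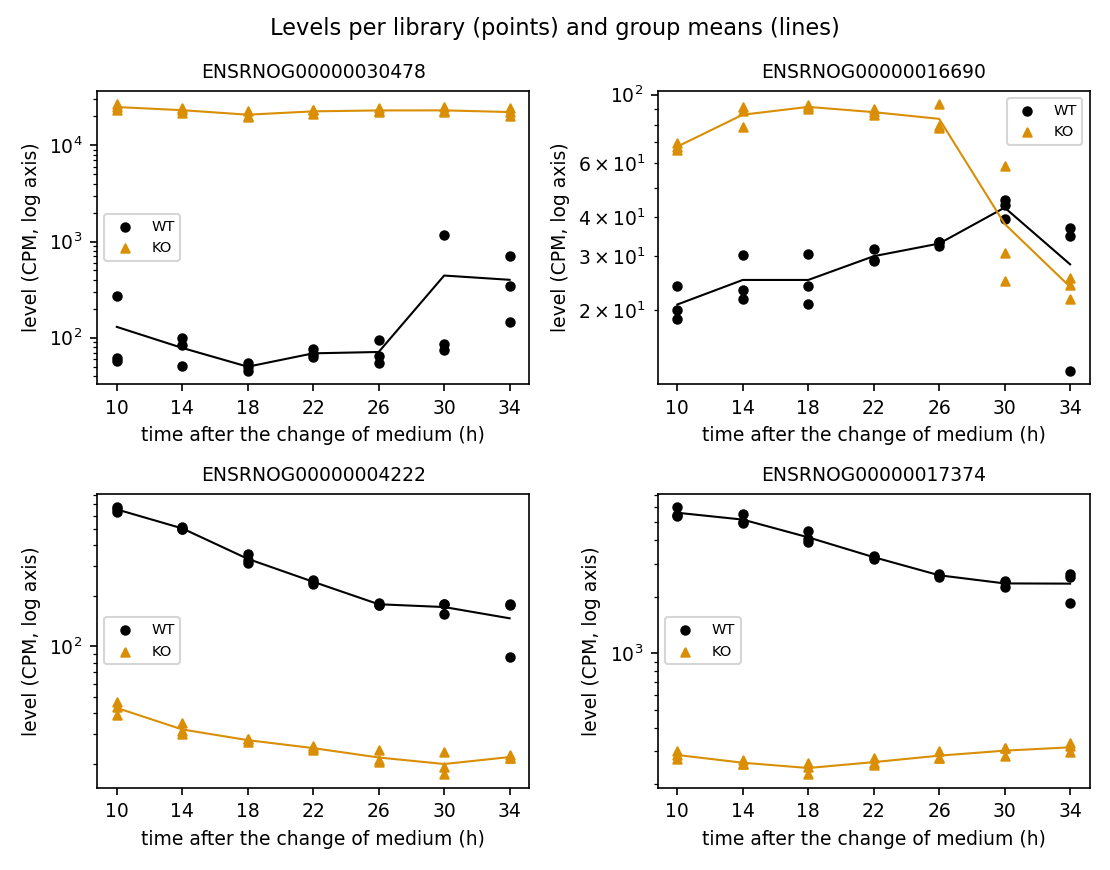
Level in CPM (log axis) of the 4 genes in each library (points) and as group means (lines) at the 7 times after the change of medium, for WT (black circles) and KO (orange triangles). In WT the means of the 2 genes that fell descend from T10 to T30, and ENSRNOG00000030478 shows the single high T30 library at 1170 CPM.

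Few genes were called between neighbouring times from T18 to T30. Tested step by step, 25 genes (0.182%) were called between T22 and T18, 24 (0.175%) between T26 and T22 and 0 between T30 and T26, all by edgeR. In the same order, the unadjusted edgeR p was under 0.05 for 1424, 1251 and 1812 genes, and DESeq2 called 174, 97 and 127. The last step was thus not the one with the fewest low unadjusted p-values. Each step shares libraries with the comparison of T30 and T18. Among the 697 genes called higher, the median level relative to T18 was 0.10 at T22, 0.15 at T26 and 0.25 at T30 on the log2(CPM + 1) scale. For the 923 genes called lower it was -0.11, -0.13 and -0.26. The median step was 0.10, 0.05 and 0.10 for the genes called higher, and -0.11, -0.02 and -0.12 for those called lower. The T22 mean lay between those of T18 and T30 for 93.7% of the genes called higher and 92.3% of those called lower, and the T26 mean for 89.1% and 92.5%. These genes were chosen for the gap between T18 and T30, which by itself places most T22 and T26 means inside it. The group means followed each other in 1 direction over all 4 times for 430 (61.7%) of the genes called higher and 467 (50.6%) of those called lower, shares that are a description only.

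The libraries of the other times took no part in the fold change and placed it in the course. At T10 and T14 the medians were -0.01 and 0.03 for the genes called higher and 0.05 and -0.01 for those called lower, close to T18. In T34 replicates 2 and 3 the medians were 0.21 and -0.24, close to T30. In the median, these genes thus lay near their T18 level from T10 on and had not returned to it in those T34 libraries. Single genes varied more, and at T10 the middle range of the genes called higher (first to last quartile) was -0.11 to 0.09 and that of the genes called lower -0.09 to 0.18. At T10, 51.4% of the genes called higher had a mean under that of T18 and 5.45% a mean above that of T30. At T34 38.9% of them had a mean above that of T30, and 43.0% of the genes called lower had one under it. With T34 replicate 1 included, the medians at T34 were 0.02 and -0.14. In that library alone they were -0.43 and 0.04.

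Most of these genes had the same direction in pairs of times that share no library with T18 or T30. From T14 to T26, also 12 h apart, 84.9% of the genes called higher had a higher mean at the later time and 79.1% of those called lower had a lower one, against 52.7% and 47.3% of all genes tested. From T22 to T34, with replicates 2 and 3 at T34, the shares were 74.9% and 75.9%. From T10 to T34, which have the same phase of a 24 h cycle, they were 85.2% and 84.9%, with the same T34 replicates. Of all genes tested, 52.1% and 47.9% had these directions. T34 replicate 1 entered none of these pairs. Relative to T18 its medians were -0.43 for the genes called higher and 0.04 for those called lower. The median difference from T10 to T34 was 0.21 for the genes called higher and -0.27 for those called lower.

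**Figure D3:**
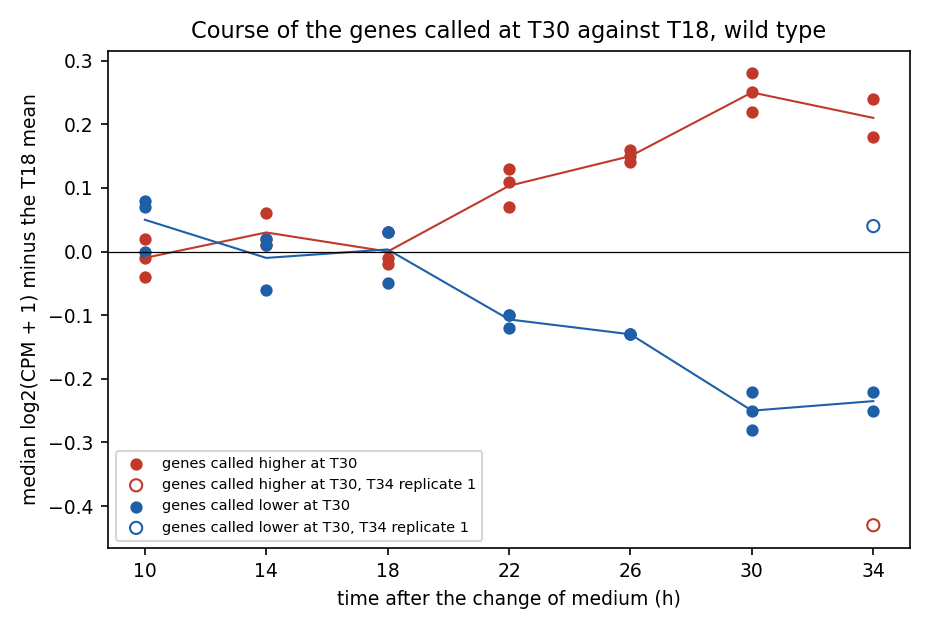
Median, over the genes called higher (red) or lower (blue) at T30, of log2(CPM + 1) minus the gene's mean at T18, for each WT library at the 7 times. Lines join the means of the filled points, and open points are T34 replicate 1. The medians lie near 0 up to T18, where single genes varied more. They lie at 0.22 to 0.28 and at -0.28 to -0.22 in the T30 libraries and remain apart in T34 replicates 2 and 3.

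Over the same 12 h in KO, 268 of the 1620 genes called in WT were called in the same direction and 525 in the opposite one. At T30 against T18 in KO 4762 of 13774 genes (34.6%) were called by edgeR, 2375 (17.2%) higher and 2387 (17.3%) lower. These KO libraries share none with the WT comparison, and in both fits the genes were tested across the whole table. Of the 697 genes called higher in WT, 103 were called higher and 256 lower in KO. Of the 923 genes called lower in WT, 165 were called lower and 269 higher in KO. With only the KO libraries of T18 and T30 in the fit, fewer were called. Of the genes called higher in WT, 54 were then called higher and 155 lower in KO. Of those called lower in WT, 64 were then called lower and 143 higher. Irrespective of calls, 63.0% of the genes called higher in WT had a lower mean in KO at T30 and 58.5% of those called lower had a higher one, against 49.9% and 50.1% of all genes tested. Over genes, KO T30 replicate 1 had correlations of log2 CPM of 0.990 and 0.991 with the other KO T30 replicates, which had 0.996 with each other. Without it the shares were 63.0% and 56.7%, against 48.0% of all genes higher in KO.

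Whether the change differed between the genotypes was tested directly. The difference was called by edgeR for 4074 genes (29.6%), of which 2059 had the higher fold change in KO. Among the 1620 genes called in WT it was called for 1084 (66.9%). The WT libraries enter both tests, so the choice of genes can raise this share. Across the genes tested, which are not independent replicates, the WT and KO log2 fold changes had a correlation of -0.08.

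Of the 4 genes described, ENSRNOG00000017374 fell in WT and rose in KO, from 245 ± 17.2 CPM at T18 to 303 ± 17.4 CPM at T30 (SD, n = 3 each). The log2 fold change in KO was 0.31 (SE 0.06, adjusted p 0.000125 by edgeR). The KO level at both times was far below that of WT. ENSRNOG00000016690 rose in WT and fell in KO, where T18 had 91.5, 92.3 and 90.1 CPM and T30 had 58.8, 24.9 and 30.6 CPM. All KO libraries at T30 lay below those at T18, with the highest value in KO T30 replicate 1. The log2 fold change there was -1.26 (SE 0.17, adjusted p 1.24e-06 by edgeR). ENSRNOG00000004222 fell in both genotypes, in KO from 27.7 ± 0.58 to 19.9 ± 3.19 CPM (SD, n = 3 each), at a log2 fold change of -0.47 (adjusted p 4.5e-05 by edgeR). For ENSRNOG00000030478 the KO log2 fold change was 0.15 (SE 0.56, adjusted p 0.860 by edgeR).

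**Figure D4:**
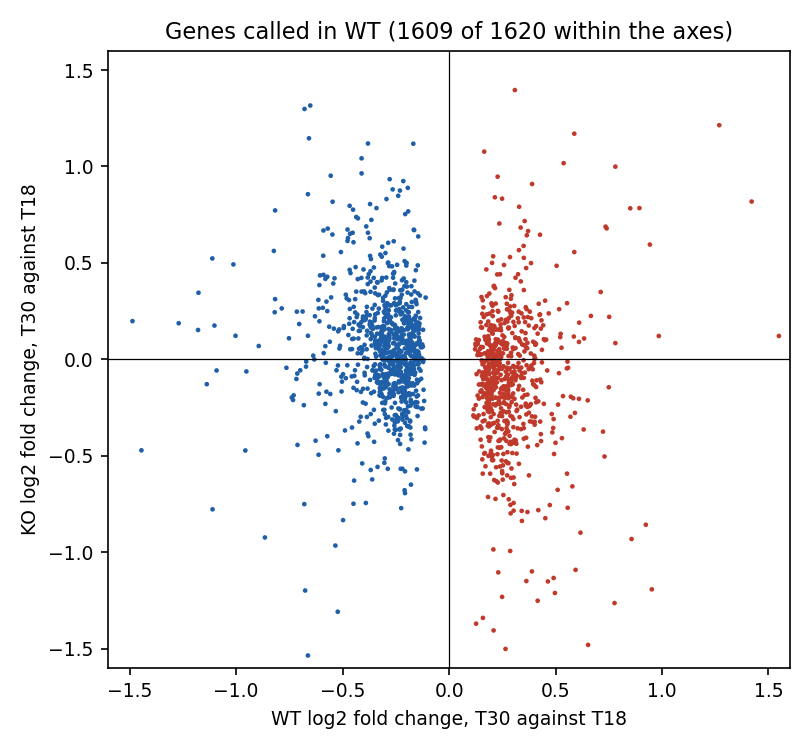
Log2 fold change at T30 against T18 in KO (vertical axis) against that in WT (horizontal axis) for genes called in WT, red where higher and blue where lower at T30 in WT. Genes beyond the axis limits are not drawn; more of the red points lie below 0 in KO (63.0% of all genes called higher) and more of the blue points above it (58.5% of those called lower).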

How the data were processed

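RNA was measured by strand-specific sequencing of paired reads of 150 bp, per the labels' protocols. The authors deposited 1 table of raw counts per gene for each genotype; featureCounts is named in the submitters' processing notes. The aligner, build, annotation, strand setting and gene filter are not given in the sources used here, so genes that overlap or have near-identical copies are uncertain. Total counts were 34.5 to 68.8 M per WT library and 45.9 to 60.5 M per KO library, and chi-square per degree of freedom was at least 6.61 between replicates at T18 and T30, above sampling noise.

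Tests used edgeR 4.0.16 in R 4.3.3: a quasi-likelihood F test with TMM scaling, the filterByExpr filter and Benjamini-Hochberg adjustment over all genes tested. The WT comparisons were fitted to 18 WT libraries with 6 group means, and the KO comparison and the difference between genotypes to 36 libraries with 12. T34 was left out of the fits because WT T34 replicate 1 was known to stand apart. Standard errors were taken from the F statistic. Levels are CPM with TMM scaling over 42 libraries. Group medians and directions used log2(CPM + 1). The tests were tested on simulated data. Alternatives included DESeq2 1.42.0, other scalings, filters and sets of libraries, and the replicate number as a block.

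The rule for naming genes took called genes with a symbol, a mean of at least 10 CPM and groups that did not overlap, by size of change. As 0 identifiers had a symbol, that condition was dropped and 2 genes per direction are printed, and the gene lists and promoter motifs were not run. The comparison, rule and lists were chosen with earlier results of these data known.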

Additional observations from a re-analysis of the deposited data

Results flagged for a closer look

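The change between T18 and T30 differed between KO and WT by a direct test, the interaction of genotype and time in edgeR, for 4074 genes. Over the alternatives the count was 115 to 4935, lowest against a 1.5-fold minimum change and highest without KO T30 replicate 1.

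The same test called each of the 4 genes described by identifier, with the difference given as the KO minus the WT log2 fold change and adjusted p from edgeR. For ENSRNOG00000030478 it was -2.99 (SE 0.82, adjusted p 0.00637), a value that includes the single high WT library T30 replicate 3. For ENSRNOG00000016690 it was -2.05 (SE 0.24, adjusted p 2.66e-07), with all 3 KO libraries lower and all 3 WT libraries higher at T30 than at T18. The choice of genes required the separation in WT. For ENSRNOG00000004222 it was 0.48 (SE 0.11, adjusted p 0.00139), and the gene fell in both genotypes. For ENSRNOG00000017374 it was 1.13 (SE 0.08, adjusted p 3.75e-11), with opposite directions in WT and KO.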

How the results depend on the processing

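Alternatives gave 155 values for 11 results, of which 111 kept their call or, for counts, lay within 1.5 times. A change of direction could be scored only for the 67 fold changes of the genes described by identifier, and 0 showed one. Those genes were chosen for large changes without overlap, which makes a change of direction unlikely. The causes of these shifts were not tested unless given. For T30 against T18 in WT, against 1620 genes, the count was 683 with only the 6 libraries, 323 with all 42 libraries, 113 with all 21 WT libraries and 754 to 2580 with 1 library left out. Without both T18 replicate 3 and T30 replicate 2, an alternative added after the data were seen, it was 1281. The share higher at T30, 43.0%, was 48.2% with median-of-ratios size factors and 33.0% with library totals. For T22 against T18, against 25, DESeq2 called 174, only the groups compared 1 and left-out libraries 9 to 97. For T26 against T22, against 24, these were 97, 138 and 2 to 13, and for T30 against T26, against 0, they were 127, 160 and 0 to 1. For KO, against 4762, the count was 2452 with only the groups compared, 2556 with all 42 libraries and 3355 to 5635 with 1 library left out. For the difference between genotypes, against 4074, these were 2715, 1824 and 3256 to 4935. The 1.5-fold minimum asks for larger changes by construction and left 1 gene in WT, 94 in KO and 115 for the difference.

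No clear pairing of the samples by replicate number appeared, though 3 libraries per time cannot exclude a weak one. Deviations from the group means correlated at 0.11, -0.23 and -0.03 between T18 and T30 libraries of the same number, and at up to 0.28 between different numbers (T18 replicate 3 with T30 replicate 2). With the replicate block 1425 genes were called in WT, 12 for T22 against T18, 13 for T26 against T22, 0 for T30 against T26, 4749 in KO and 4044 for the difference. Of 67 alternative fold changes of the 4 genes 60 kept their call. ENSRNOG00000030478 lost it in 5 (adjusted p 0.0677 to 0.439), the highest p without T30 replicate 3, and ENSRNOG00000016690 lost it with all 21 WT libraries (adjusted p 0.247) and all 42 (adjusted p 0.0804, by edgeR).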
